A study of Mus musculus with 23 samples.

Results

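The 9 genes described here are the dopamine receptor genes Drd1, Drd2, Drd3, Drd4 and Drd5, the gene of tyrosine hydroxylase (Th), both monoamine oxidase genes (Maoa and Maob) and Ppp1r1b, the gene of the phosphoprotein DARPP-32. They were taken by symbol from a table of 19733 genes, and all 9 were found in it. The table holds hippocampal RNA sequencing of 23 wild-type (WT) male C57BL/6J mice, 1 column per mouse, received at 6 weeks of age and kept on liquid diets for 16 weeks. The 9 Ctrl mice received the control liquid diet with vehicle, the 7 EtOH mice the ethanol liquid diet with vehicle, and the 7 EtOH-UA mice the ethanol liquid diet with urolithin A (UA), a gut microbial product of ellagic acid, by gavage at 200 mg/kg/day. The comparisons ask how long-term ethanol, and UA given with it, were reflected in the hippocampal transcripts that receive, make and break down dopamine. Values are FPKM, which count sequenced fragments per kilobase of a transcript relative to the whole library. They take transcript length into account, so levels of different genes can be set side by side.

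Dopamine is made from tyrosine, and tyrosine hydroxylase carries out the rate-limiting step. The hippocampus holds the endings of dopaminergic and noradrenergic axons, whose cell bodies lie in the midbrain and brainstem. Receptors of the D1 class (Drd1, Drd5) couple to Gs and Golf proteins and raise cyclic AMP, and those of the D2 class (Drd2, Drd3, Drd4) couple to Gi and Go proteins and lower it. DARPP-32, phosphorylated by protein kinase A, becomes an inhibitor of protein phosphatase 1. It is best known from the projection neurons of the striatum, and has also been described in the epithelium of the choroid plexus. The monoamine oxidases, on the outer mitochondrial membrane, deaminate dopamine, MAO-A mostly in neurons and MAO-B mostly in astrocytes and serotonergic neurons.

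On GRCm38 (the assembly also called mm10), Drd1 (gene ID 13488) lies at chr13:54051183-54055658, Drd5 (13492) at chr5:38319509-38322523, Drd2 (13489) at chr9:49340360-49408177, Drd3 (13490) at chr16:43754015-43825982 and Drd4 (13491) at chr7:141291974-141296464. Th (21823) lies on the same chromosome as Drd4, at chr7:142892779-142899995. Maoa (17161, chrX:16619698-16687812) and Maob (109731, chrX:16709281-16817366) are neighbours, with 21468 bases between their annotated ends. Ppp1r1b (19049) lies at chr11:98348406-98357796. In the GENCODE annotation, 1531 of the 3152 exonic bases of Drd5 overlap exons of Gm26560 on the opposite strand, and 460 of the 2928 exonic bases of Ppp1r1b overlap 1700003D09Rik on the opposite strand. The sources used here do not state whether reads were counted by strand, so fragments from these stretches cannot be assigned to one gene or the other.

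RefSeq windows of 300 bases around the transcription start (250 before, 50 after; GRCm38.p6) were at hand for 7 of the 9 genes, all but Maob and Ppp1r1b. Those of Drd1 and Drd5 are shown because these genes varied in opposite directions between mice, that of Drd2 because it is the receptor the study followed, and that of Th because it alone held a cyclic AMP response element. Each is given on the strand of its gene, with matches to the GC box core (GGGCGG, either strand) and to the cyclic AMP response element (TGACGTCA, either strand) in capitals.
Drd1, chr13:54055609-54055908, minus strand: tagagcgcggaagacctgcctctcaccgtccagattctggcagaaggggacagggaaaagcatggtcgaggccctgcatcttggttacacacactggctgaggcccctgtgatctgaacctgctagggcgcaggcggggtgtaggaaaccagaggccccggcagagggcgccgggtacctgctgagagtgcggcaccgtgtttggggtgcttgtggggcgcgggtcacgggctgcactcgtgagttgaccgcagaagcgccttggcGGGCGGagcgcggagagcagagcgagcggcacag
Drd5, chr5:38319259-38319558, plus strand: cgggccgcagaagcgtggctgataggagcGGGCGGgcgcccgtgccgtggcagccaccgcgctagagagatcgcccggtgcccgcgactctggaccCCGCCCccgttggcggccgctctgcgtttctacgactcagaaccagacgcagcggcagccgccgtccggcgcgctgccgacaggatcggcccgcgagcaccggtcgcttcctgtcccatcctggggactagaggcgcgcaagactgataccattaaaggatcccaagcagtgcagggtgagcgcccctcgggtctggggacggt
Drd2, chr9:49340153-49340452, plus strand: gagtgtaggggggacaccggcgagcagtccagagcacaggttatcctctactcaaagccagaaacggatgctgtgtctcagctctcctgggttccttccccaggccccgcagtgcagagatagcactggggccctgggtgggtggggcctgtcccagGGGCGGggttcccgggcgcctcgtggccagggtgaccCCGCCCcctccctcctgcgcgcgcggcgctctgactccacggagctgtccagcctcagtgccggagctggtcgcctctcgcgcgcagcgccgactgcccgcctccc
Th, chr7:142899946-142900245, minus strand: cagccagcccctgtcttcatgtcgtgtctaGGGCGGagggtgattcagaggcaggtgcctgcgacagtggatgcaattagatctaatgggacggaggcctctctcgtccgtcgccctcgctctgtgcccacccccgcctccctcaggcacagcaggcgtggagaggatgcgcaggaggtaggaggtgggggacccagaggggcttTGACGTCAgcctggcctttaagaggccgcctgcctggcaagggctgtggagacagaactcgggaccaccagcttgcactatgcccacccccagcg

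Drd1 has a second window in the table, at a start further into the gene (chr13:54054731-54055030, GC content 59.3%, a GC box core at -133), which is not printed. The Drd1 window shown held 1 GC box core, 17 bases after the start, and the Drd5 window held 2, at positions -221 and -154 from it. The Drd2 window held 2, at -93 and -56. The Th window held the cyclic AMP response element at -45, with a GC box core at -220. Among 32851 RefSeq promoter windows of this length, 35.7% held the GC box core and 1.79% the cyclic AMP response element. The TATA box letters TATAAA, on either strand, were in 13.6% of all windows and in none of the 8 windows of these genes. The GC content was 65.7% for Drd1, 70.3% for both Drd5 and Drd2, and 64.3% for Th, against a median of 52.7% over all windows. The matches are descriptions of the letters only.

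Hippocampal neuron transcripts were present, since all 10 markers fixed for these cells averaged at least 0.1 FPKM, led by Nptx1, Mpped1 and Neurod2. Of 11 markers of monoaminergic cell bodies, 7 averaged under 0.1 FPKM, among them the dopamine transporter Slc6a3 at 0.0696, and the levels of Ddc, Slc18a2 and Tph2 led this list. Libraries summed to 330456 to 361354 FPKM for Ctrl, 327896 to 366930 for EtOH and 333801 to 404609 for EtOH-UA mice. Ttr, a choroid plexus transcript, spanned 3.88 to 2914 FPKM (median 56.1) among Ctrl, 58.4 to 5628 (median 1249) among EtOH and 11.3 to 7705 (median 1811) among EtOH-UA mice. Read counts were not used here. Even steps between the lowest values of 170 genes corresponded to 17.3 fragments per kilobase at 1 FPKM (quartiles 16.2 and 19.1), which puts about 981 fragments per mouse on Maoa, 929 on Ppp1r1b, 469 on Maob, 226 on Drd5, 120 on Drd1, 28.8 on Drd2, 9.18 on Th, 3.69 on Drd4 and 0.245 on Drd3.

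The 9 transcripts spanned a wide range of levels. Ppp1r1b was the highest of the 9 transcripts, at 26.8 FPKM over all mice, and lay above Maoa (13.6) in 23 of 23 mice. Maoa lay above Maob (11.2) in 22 of 23 mice, although the ranges of these neighbours overlapped. Maob lay above Drd5 (4.14), Drd5 above Drd1 (1.95), Drd1 above Drd2 (0.653) and Drd2 above Th (0.272) in 23 of 23 mice each. At the low end, Th exceeded Drd4 (0.0761) in 21 of 23 mice, and Drd4 exceeded Drd3 (0.00826) in 22 with 1 tie at 0. Ppp1r1b was higher than 85.1% of all genes in the table and Drd2 higher than 30.9%.

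By limma, 0 of the 7 members that could be tested passed an adjusted p of 0.05 (Benjamini-Hochberg over 15986 genes) in any of the 3 comparisons, and the lowest adjusted p among them was 0.900. Over all genes the share called was 0% in each comparison as well. At an unadjusted limma p under 0.05 there was 1 member in 21 tests, Ppp1r1b in EtOH-UA against Ctrl mice, where 3.08% of all genes passed. The corresponding shares were 3.05% for EtOH against Ctrl and 3.27% for EtOH-UA against EtOH mice, with 0 members passing in each. For 0 of the 9 members did the groups fail to overlap, where 0.00626%, 0.025% and 0.0125% of all genes had groups without overlap in EtOH against Ctrl, EtOH-UA against EtOH and EtOH-UA against Ctrl mice. Drd3 and Drd4, with means under 0.1 FPKM, were left out of the fit and compared by exact permutation tests alone. The comparisons share their groups and are not independent of one another.

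**Figure D1:**
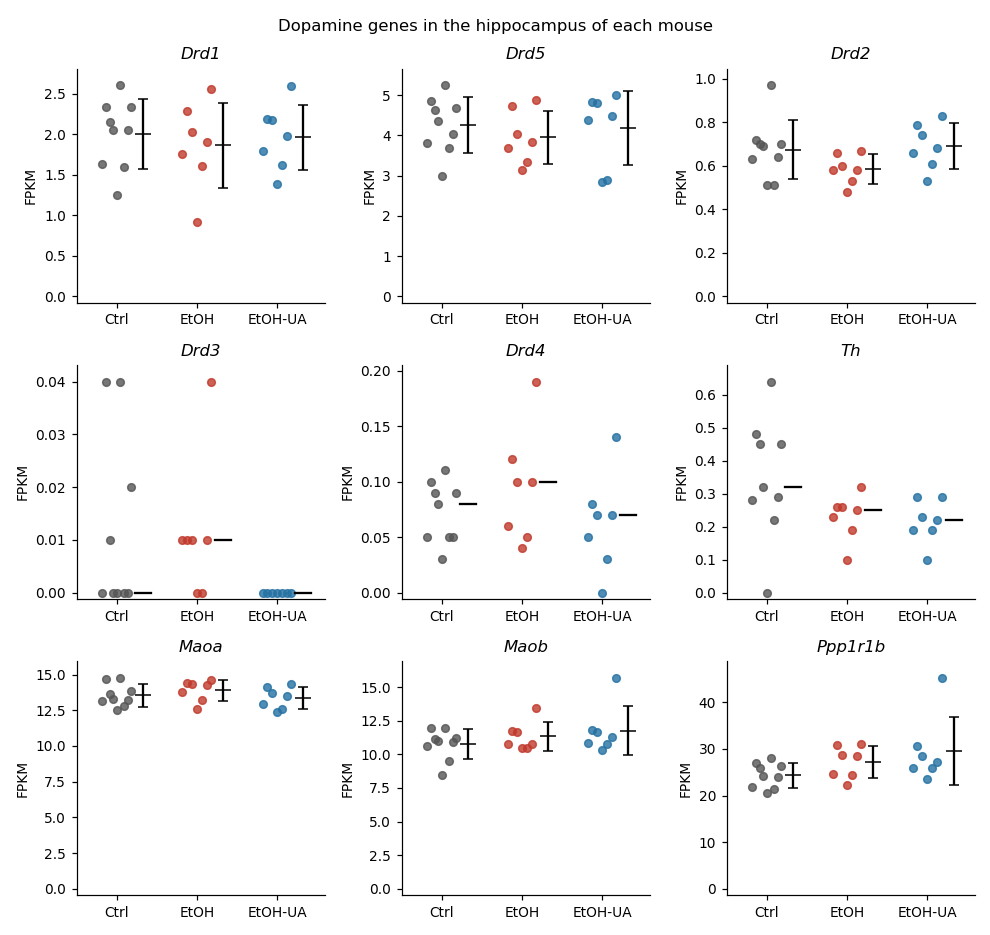
FPKM of the 9 genes in each of the 9 Ctrl, 7 EtOH and 7 EtOH-UA mice, 1 point per mouse. Bars give the mean ± SD beside the points, and for Drd3, Drd4 and Th, which had values listed at 0, a line gives the median; the groups overlapped for every gene, and 1 EtOH-UA mouse stood at 45.2 FPKM of Ppp1r1b and 15.7 of Maob.

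**Figure D2:**
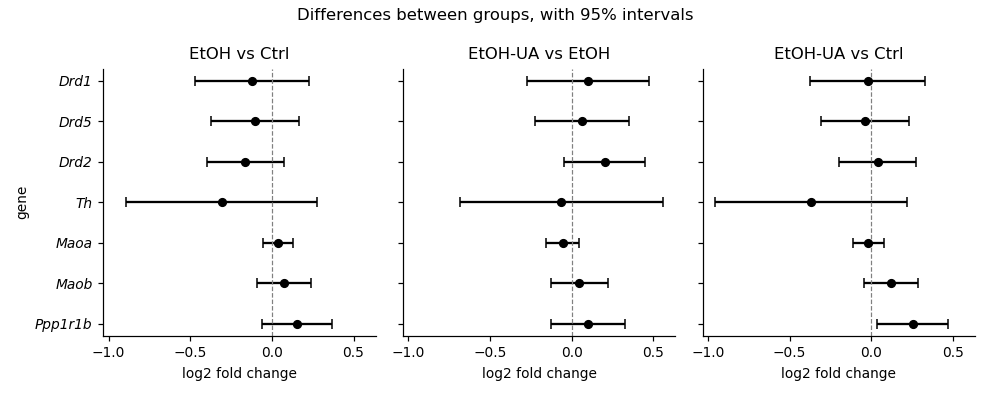
Log2 fold changes of the 7 genes tested in limma, on the log2(FPKM + 0.1) scale, with 95% intervals, for EtOH against Ctrl, EtOH-UA against EtOH and EtOH-UA against Ctrl mice. The intervals were narrowest for Maoa and widest for Th, and 1 of the 21, Ppp1r1b in EtOH-UA against Ctrl mice, did not include 0.

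Of the D1 class, Drd1 ranged between 1.25 and 2.6 FPKM among Ctrl (median 2.05), 0.91 and 2.55 among EtOH (median 1.90) and 1.38 and 2.59 among EtOH-UA mice (median 1.98). The groups overlapped almost wholly, and the lowest value belonged to 1 EtOH mouse. The means were 2.0 ± 0.428 FPKM (SD, n = 9), 1.86 ± 0.525 (SD, n = 7) and 1.96 ± 0.403 (SD, n = 7). Drd1 differed by a log2 fold change of -0.12 in EtOH against Ctrl mice (95% interval -0.47 to 0.23; two-sided exact permutation p = 0.549) and of 0.10 in EtOH-UA against EtOH mice (-0.27 to 0.47; exact p = 0.660). The differences were smaller than the spread between mice, and the lower limit of the interval for ethanol was a change of -28.0%. Without the EtOH mouse at 0.91 FPKM the former difference was 0.03, of the opposite sign.

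Drd5 ranged between 2.99 and 5.24 FPKM among Ctrl (median 4.36), 3.14 and 4.88 among EtOH (median 3.84) and 2.85 and 4.99 among EtOH-UA mice (median 4.48). High and low mice occurred in every group. The log2 fold change was -0.10 in EtOH against Ctrl mice (95% interval -0.37 to 0.17; exact permutation p = 0.399), 0.06 in EtOH-UA against EtOH mice (-0.22 to 0.35; exact p = 0.685) and -0.04 in EtOH-UA against Ctrl mice (-0.31 to 0.23; exact p = 0.787). In each EtOH-UA mouse Drd5 exceeded Drd1, by 1.12 to 3.62 times, and in EtOH mice by 1.44 to 5.36 times. These Drd5 values may include fragments of the overlapping Gm26560.

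Of the D2 class, Drd2, whose product is both an autoreceptor on dopamine neurons and a receptor on hilar mossy cells, was listed at 0.51, 0.51, 0.63, 0.64, 0.69, 0.70, 0.70, 0.72 and 0.97 FPKM in Ctrl mice. The EtOH mice were listed at 0.48, 0.53, 0.58, 0.58, 0.60, 0.66 and 0.67, and the EtOH-UA mice at 0.53, 0.61, 0.66, 0.68, 0.74, 0.79 and 0.83. All 7 EtOH mice lay below the Ctrl median and 6 of 7 EtOH-UA mice above the EtOH median, while the ranges overlapped in both comparisons. The log2 fold change was -0.16 in EtOH against Ctrl mice (95% interval -0.40 to 0.07; exact permutation p = 0.140) and 0.20 in EtOH-UA against EtOH mice (-0.05 to 0.45; exact p = 0.0443; limma p = 0.107 and adjusted p = 0.900). EtOH-UA and Ctrl mice differed by 0.04 (-0.20 to 0.27; exact p = 0.734). At about 28.8 fragments per mouse, counting alone gives a spread of 18.6%, against a measured coefficient of variation of 20.2% (Ctrl), 11.5% (EtOH) and 15.1% (EtOH-UA). By this estimate of depth, the spread of Drd2 within each group was close to or below that of counting. The estimate came from transcripts of 500 to 1500 bases, and that of Drd2 is longer, at 2547 bases. Its fit to longer transcripts was not tested.

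Drd3 was listed at 0 in 5 of 9 Ctrl, 2 of 7 EtOH and 7 of 7 EtOH-UA mice, and its highest value was 0.04 FPKM, in 2 Ctrl mice and 1 EtOH mouse. One fragment on this transcript corresponds to about 0.0337 FPKM, so the listed values of 0.01 lie under 1 fragment. The exact permutation test of EtOH-UA against EtOH mice gave p = 0.0210, on values of this size. Drd4 ranged between 0.03 and 0.11 FPKM among Ctrl (median 0.08), 0.04 and 0.19 among EtOH (median 0.10) and 0 and 0.14 among EtOH-UA mice (median 0.07). These groups overlapped, and the exact permutation p was 0.342 for EtOH against Ctrl, 0.228 for EtOH-UA against EtOH and 0.512 for EtOH-UA against Ctrl mice. In all, 3 of the 27 exact tests of the 9 genes had an unadjusted p under 0.05: Drd2 and Drd3 in EtOH-UA against EtOH mice, and Ppp1r1b in EtOH-UA against Ctrl mice. The share of all genes passing the exact test was not computed, and the comparisons share groups. This count is therefore not read as an excess, and in limma 1 of 21 tests passed.

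Summed over the 5 receptors, transcripts amounted to 6.82 ± 0.592 FPKM (SD, n = 23). Drd5 made up 60.4% of the sum, Drd1 28.8%, Drd2 9.57%, Drd4 1.14% and Drd3 0.127%. The Drd5 share may include fragments of Gm26560, which overlaps 1531 of its 3152 exonic bases on the opposite strand. By group (Ctrl, EtOH, EtOH-UA), Drd5 made up 60.4%, 60.6% and 60.1%, and Drd2 9.61%, 9.0% and 10.1%. Over single mice the share of Drd1 ran from 17.2% to 36.9% (Ctrl), 13.9% to 37.0% (EtOH) and 19.8% to 40.8% (EtOH-UA). The sum of Drd1 and Drd5 had a coefficient of variation of 9.16% over the 23 mice, against 22.4% for Drd1 and 17.7% for Drd5 alone. A sum of genes that vary independently can also have a lower coefficient than each gene, so these values alone do not show a fixed total.

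**Figure D3:**
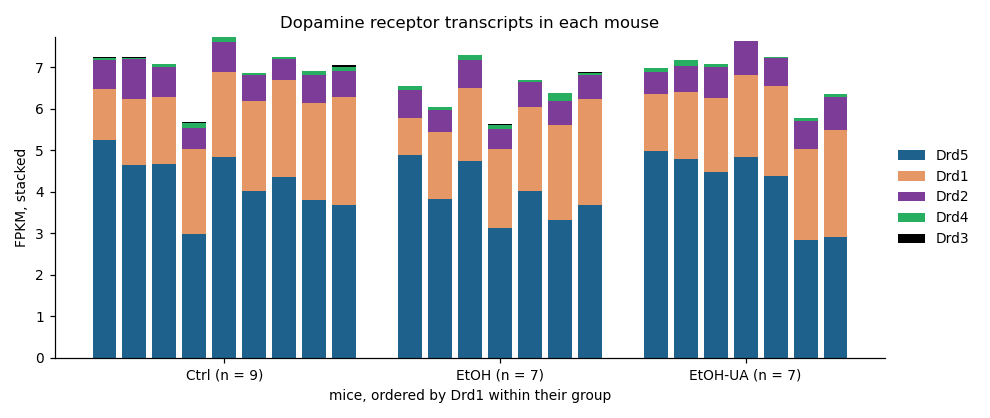
Stacked FPKM of the 5 dopamine receptor transcripts in each mouse, with mice ordered by Drd1 within each group. The stacks reach 5.63 to 7.73 FPKM, and in 23 of 23 a smaller Drd1 block stands on a larger Drd5 block. The Drd5 blocks may include fragments of the overlapping Gm26560.

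Drd1 and Drd5 varied in opposite directions between mice of the same group. As deviations from group means of log2(FPKM + 0.1), their Pearson's r was -0.649 over 23 mice (permutation p = 0.0006, adjusted p = 0.0126 over 21 pairs of the 7 genes; permutations were made within groups) and Spearman's rho was -0.772 (permutation p = 5e-05, adjusted p = 0.00105). Within groups r was -0.627 (Ctrl), -0.665 (EtOH) and -0.770 (EtOH-UA), and without the 2 mice farthest from the median of Drd1 it was -0.590. The EtOH mouse with the lowest Drd1 of all, 0.91 FPKM, had the highest Drd5 of its group, 4.88, and the Ctrl mouse with the lowest Drd1 of its group, 1.25, had the highest Drd5 of all, 5.24. The EtOH-UA mouse with the highest Drd1 of its group, 2.59, had a Drd5 of 2.90. Other extremes fitted less closely. The mice with the highest Drd1 among Ctrl (2.60) and EtOH (2.55) each had a Drd5 of 3.68, the lowest of neither group. The mouse with the lowest Drd5 of all, 2.85, an EtOH-UA mouse, had a Drd1 of 2.19. Bulk tissue cannot tell fewer cells of a type from less RNA per cell.

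Drd1 and Drd5 were also set against a list of 10 genes known from striatal projection neurons. All were detected in these samples, led by Penk, Rasd2 and Pde10a. Several of them are also expressed by hippocampal neurons. Drd1 rose with the mean deviation of this list (r = 0.726, permutation p = 0.00023, adjusted p = 0.0145 over 63 pairs of a gene and a list; rho = 0.671, permutation p = 0.00102, adjusted p = 0.0214), and r was 0.581 without the 2 farthest mice. Drd5 fell with it (r = -0.681, permutation p = 0.00057, adjusted p = 0.0180; rho = -0.712, permutation p = 0.00034, adjusted p = 0.0214; r = -0.701 without the 2 farthest mice). The list did not move as one: over its genes, r with Drd1 was positive for 6, among them Tac1 (0.555) and Penk (0.461), and negative for 4, among them Rasd2 (-0.622), and r with Drd5 was negative for 8 of 10. Summed over the list, levels were 66.0 to 86.1 FPKM (Ctrl), 58.2 to 79.5 (EtOH) and 62.8 to 90.2 (EtOH-UA), and its lowest gene, Six3, averaged 0.277. The part of striatal-type cells in this relation was not tested.

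**Figure D4:**
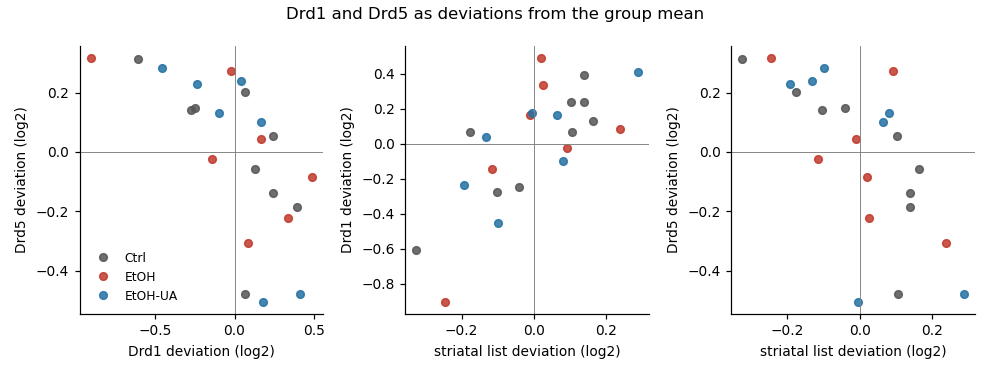
Deviations of each mouse from its group mean on the log2(FPKM + 0.1) scale: Drd5 against Drd1, and Drd1 and Drd5 each against the mean deviation of 10 genes of striatal projection neurons. Points are mice, coloured by group; Drd5 falls with Drd1 (r = -0.649), Drd1 rises with the list (r = 0.726) and Drd5 falls with it (r = -0.681).

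Among 12903 genes averaging 1 FPKM or more, those most like Drd1 over the 23 mice were Frmd3 (r = 0.857), Arpp21 (0.853), which encodes a phosphoprotein regulated by cyclic AMP, and Camk2d (0.834), a subunit of calcium/calmodulin-dependent kinase II. Most like Drd5 were Iqgap2 (0.834), Gria1 (0.825), which encodes an AMPA receptor subunit, and Elmod1 (0.814). The genes nearest to Drd2, among 12904, were less close: Dhx40 (0.639), Rad23b (0.632) and Hspa4 (0.592). Maoa was matched by Magi3 (0.877), Map2 (0.864), the neuronal microtubule protein, and Fam172a (0.862). These values are descriptions, picked as the highest of many, and carry no test.

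Th was listed at 0, 0.22, 0.28, 0.29, 0.32, 0.45, 0.45, 0.48 and 0.64 FPKM in Ctrl mice, at 0.10, 0.19, 0.23, 0.25, 0.26, 0.26 and 0.32 in EtOH mice, and at 0.10, 0.19, 0.19, 0.22, 0.23, 0.29 and 0.29 in EtOH-UA mice. The 4 highest values all belonged to Ctrl mice, as did the value of 0. None of the EtOH or EtOH-UA mice lay above the Ctrl median. The log2 fold change was -0.31 in EtOH against Ctrl mice (95% interval -0.89 to 0.28; exact permutation p = 0.410), -0.37 in EtOH-UA against Ctrl mice (-0.96 to 0.22; exact p = 0.311) and -0.06 in EtOH-UA against EtOH mice (-0.68 to 0.56; exact p = 0.716). Without the Ctrl mouse at 0, the first 2 of these were -0.56 and -0.62, with limma adjusted p-values of 0.958 and 0.9999. Th rested on about 9.18 fragments per mouse, so changes of a few fragments weigh heavily.

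The Ctrl mouse in which Th was listed at 0 also had the highest Drd2 of all mice (0.97 FPKM), the highest Maoa of all (14.8) and the highest Ttr of its group (2914). Of the genes that act after Th, Ddc, which turns L-DOPA into dopamine, averaged 3.84 FPKM (2.73 to 4.84), and Slc18a2, the vesicular monoamine transporter, 1.74 (1.07 to 2.31). Dbh, which converts dopamine to noradrenaline, averaged 0.187 FPKM (0.03 to 0.44).

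Of the oxidases, Maoa was the steadiest of the 9 transcripts. It ranged between 12.5 and 14.8 FPKM among Ctrl (median 13.3), 12.6 and 14.6 among EtOH (median 14.2) and 12.4 and 14.3 among EtOH-UA mice (median 13.5). The groups covered nearly the same range. The log2 fold change was 0.04 in EtOH against Ctrl mice (95% interval -0.06 to 0.13; exact permutation p = 0.376), -0.05 in EtOH-UA against EtOH mice (-0.15 to 0.05; exact p = 0.226) and -0.02 in EtOH-UA against Ctrl mice (-0.11 to 0.08; exact p = 0.663). The lower limits were changes of -3.91% in EtOH against Ctrl and of -10.1% in EtOH-UA against EtOH mice.

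Maob ranged between 8.47 and 12.0 FPKM among Ctrl (median 10.99), 10.5 and 13.4 among EtOH (median 10.8) and 10.3 and 15.7 among EtOH-UA mice (median 11.3). The highest value stood apart from the next in its group, at 11.8. The log2 fold change was 0.08 in EtOH against Ctrl mice (95% interval -0.09 to 0.24; exact permutation p = 0.328), 0.05 in EtOH-UA against EtOH mice (-0.13 to 0.22; exact p = 0.643) and 0.12 in EtOH-UA against Ctrl mice (-0.04 to 0.29; exact p = 0.212). Without the EtOH-UA mouse at 15.7 FPKM the last 2 of these were -0.024 and 0.053. Although Maoa and Maob lie side by side on the X chromosome, their deviations did not go together (r = -0.348, permutation p = 0.125, adjusted p = 0.523; rho = -0.328, permutation p = 0.137, adjusted p = 0.586; r = -0.293 without the 2 farthest mice). With the mean deviation of 8 astrocyte genes, r of Maob was 0.049 over 23 mice (permutation p = 0.833, adjusted p = 0.957), positive for 3 of the 8 genes. Of 63 relations of a gene with a marker list, 4 passed an adjusted p of 0.05 by r and 3 by rho, from permutations within groups.

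Ppp1r1b ranged between 20.7 and 28.1 FPKM among Ctrl (median 24.2), 22.3 and 31.0 among EtOH (median 28.5) and 23.5 and 45.2 among EtOH-UA mice (median 27.3). Of the EtOH-UA mice 6 of 7 lay above the Ctrl median, as did 6 of 7 EtOH mice, and all groups overlapped. The means were 24.4 ± 2.67 FPKM (SD, n = 9), 27.2 ± 3.43 (SD, n = 7) and 29.5 ± 7.25 (SD, n = 7). The log2 fold change was 0.15 in EtOH against Ctrl mice (95% interval -0.06 to 0.37; exact permutation p = 0.0962), 0.10 in EtOH-UA against EtOH mice (-0.13 to 0.33; exact p = 0.533) and 0.25 in EtOH-UA against Ctrl mice (0.04 to 0.47; exact p = 0.0298; limma p = 0.0231 and adjusted p = 0.999). Without the EtOH-UA mouse at 45.2 FPKM the last of these was 0.15, and EtOH-UA against EtOH mice differed by -0.0066. That mouse had the highest summed FPKM of all libraries, the highest Ttr (7705) and Maob (15.7) of all mice, the lowest Drd5 of all (2.85) and a Th of 0.10.

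Maob and Ppp1r1b rose together between mice, with r = 0.693 over 23 mice (permutation p = 0.00327, adjusted p = 0.0343 over 21 pairs), while rho was 0.533 (permutation p = 0.0121, adjusted p = 0.127). Without the 2 mice farthest from the median of Maob r was 0.428, so the relation rested in good part on these mice. By group it was 0.437 (Ctrl), 0.530 (EtOH) and 0.920 (EtOH-UA). The libraries also fell on either side of a gap in Ttr, from 70.2 to 470.2 FPKM, with 4 of 9 Ctrl, 6 of 7 EtOH and 4 of 7 EtOH-UA mice above it, and relations with the 8 genes of the choroid plexus list (led by Ttr, Kl and Clic6, all detected) are therefore given on each side and not pooled. The relations followed on each side had all passed an adjusted p of 0.05 by Pearson's r over the same 23 mice. Ttr, which set the gap, is itself in the list. The adjusted p-values on each side do not allow for these choices and are not independent tests.

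Among the 14 mice above the gap, and after removal of group means, Ppp1r1b rose with the choroid plexus list (r = 0.613, permutation p = 0.0220, adjusted p = 0.0440 over 6 relations; rho = 0.578, permutation p = 0.0463, adjusted p = 0.0926), with r = 0.425 without the 2 farthest mice. Maob did so too (r = 0.756, permutation p = 0.00468, adjusted p = 0.0281; rho = 0.736, permutation p = 0.00354, adjusted p = 0.0212), with r = 0.455 without the 2 farthest mice. Among 8 mice below the gap, the lone EtOH mouse there left out, r was 0.03 for Ppp1r1b (permutation p = 0.961; rho = -0.05, permutation p = 0.947; r = 0.413 without the 2 farthest mice) and -0.14 for Maob (permutation p = 0.736; rho = -0.14, permutation p = 0.769; r = -0.211 without the 2 farthest mice). The difference between the sides was not tested, and for Ppp1r1b the values without the farthest mice were close to each other. Between Maob and Ppp1r1b themselves r was 0.788 above the gap (permutation p = 0.0217, adjusted p = 0.0440; rho = 0.644, permutation p = 0.0335, adjusted p = 0.0926; 0.566 without the 2 farthest mice) and 0.03 below it (permutation p = 0.952; rho = -0.10, permutation p = 0.864; -0.277 without the 2 farthest mice). The summed choroid plexus list ran from 8.21 to 2980 FPKM (Ctrl), 71.2 to 5771 (EtOH) and 16.6 to 7828 (EtOH-UA), and its part in the Ppp1r1b difference between groups was not tested. Over the same 23 mice the genes most like Ppp1r1b were Fxyd1 (r = 0.868), a regulator of the sodium pump, Tmem86a (0.866) and Prcd (0.864). Among those most like Maob were Csrp2 (0.857) and Tcn2 (0.830), the transcobalamin that carries vitamin B12. Without the 2 farthest mice these were 0.735, 0.696 and 0.710 for Ppp1r1b, and 0.790 and 0.779 for Maob. They pool both sides of the gap, were picked as the highest of many and carry no test.

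**Figure D5:**
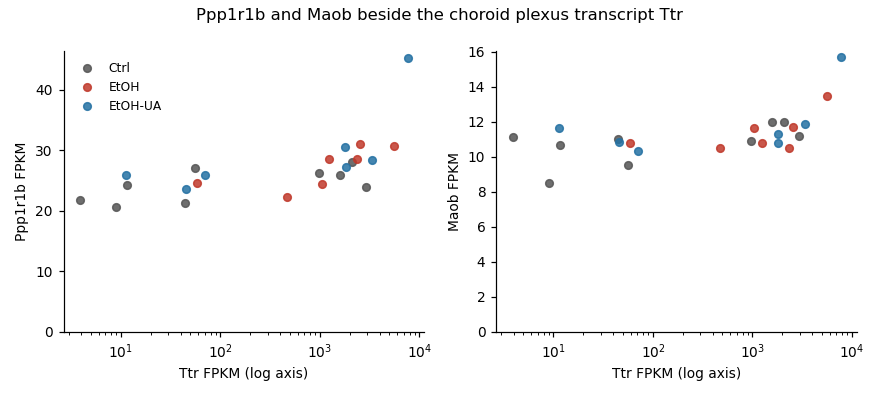
FPKM of Ppp1r1b and of Maob in each mouse against FPKM of the choroid plexus transcript Ttr on a log axis, coloured by group. A gap in Ttr runs from 70.2 to 470.2 FPKM, and the mouse with the highest Ttr, 7705, has the highest Ppp1r1b and Maob.

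Around these genes, 66 others of dopamine handling and signalling were read from the same fit, 63 of them averaging 0.1 FPKM or more. None passed an adjusted p of 0.05 in limma in any comparison, and 0% of all genes did. In EtOH against Ctrl mice 17 of the 63 had a higher mean, with a median log2 fold change of -0.03, beside 48.6% of all genes tested with a median of -0.0030, and 1 fell below an unadjusted limma p of 0.05, where 3.05% of all genes did (1.95% higher and 1.1% lower). This was the adenosine receptor gene Adora2a, at 0.440 ± 0.0891 FPKM (SD, n = 7) in EtOH and 0.608 ± 0.0867 (SD, n = 9) in Ctrl mice, a log2 fold change of -0.40 (limma p = 0.00554, limma adjusted p = 0.999; exact permutation p = 0.0014), with 7 of 7 EtOH mice below the Ctrl median. The next smallest p-values belonged to Gnal, the Golf subunit that couples D1 receptors (log2 fold change 0.10, exact permutation p = 0.0599), and Arrb2, a beta-arrestin (-0.09, exact p = 0.157).

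In EtOH-UA against EtOH mice 41 of the 63 had a higher mean, with a median log2 fold change of 0.03, beside 51.2% of all genes tested with a median of 0.0033, and 5 higher and 0 lower genes fell below an unadjusted limma p of 0.05, where 1.83% and 1.45% of all genes did. Arrb2 (log2 fold change 0.17, exact permutation p = 0.0495) and Aldh1a1, an aldehyde dehydrogenase that oxidizes the aldehyde made from dopamine by monoamine oxidase (0.26, exact p = 0.0437), were among these 5, with limma adjusted p-values of 0.900.

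In EtOH-UA against Ctrl mice 33 of the 63 had a higher mean, beside 51.2% of all genes tested, and 2 lower and 0 higher genes fell below an unadjusted limma p of 0.05, where 1.52% and 1.56% of all genes did. These were Prkar2a, a regulatory subunit of protein kinase A (log2 fold change -0.12, exact permutation p = 0.0163), and Grk3, a receptor kinase (-0.21, exact p = 0.0461), followed by Rgs4, which speeds the turnoff of Gi proteins (-0.17, exact p = 0.0890).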

How the data were processed

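Hippocampal RNA of 23 mice was sequenced. Per the paper's methods, the authors filtered reads with SOAPnuke, aligned them with Bowtie2 to mm10, used RSEM for quantification, and the deposited values are FPKM rounded to 2 decimals. The submitters' processing notes name HISAT2 (2.1.0), Bowtie2 (2.2.5), RSEM (1.2.8), StringTie and DESeq. The methods name poly(A)+ RNA and the labels total RNA. Column names gave the group of each mouse. FPKM are not counts, so no count test was run.

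Values were transformed as log2(FPKM + 0.1), and limma (3.58.1, R 4.3.3) was run on the 15986 genes averaging 0.1 FPKM or more, with a mean for each of 3 groups, a trended eBayes step and Benjamini-Hochberg adjustment over all genes. A fold change on this scale understates the change of low genes. For single genes, differences of means were tested by exact two-sided permutation (11440 splits against Ctrl, 3432 for EtOH-UA against EtOH mice). The exact p is the share of splits of these mice with a difference of means at least as large as the one seen. Correlations used deviations from group means and 100000 permutations within groups.

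The genes and lists were chosen with earlier results of these data known. Named were all 9 members, from the pathway list the 3 smallest p-values per comparison, from each marker list the 3 most abundant genes, and the 3 genes most like each member averaging 0.5 FPKM or more; markers and mice singled out beyond this were chosen after their values were seen. Depth was estimated from the steps between low values, and counting spreads cover counting error only. Alternatives were pseudocounts of 1 and 0.01, no filter, a filter at 1 FPKM, only the compared groups, upper-quartile scaling, quantile normalization and each mouse left out. Genes outside these lists were not described, and a few named by the rule are not reported here.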

Additional observations from a re-analysis of the deposited data

Results flagged for a closer look

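In 26 groups of values, a mouse was set against the nearest other mouse of its group by Dixon's ratio of gap to range. For independent and normally distributed values, about 1.3 such groups would be expected to pass at 1 in 20, and 4 did. Rounded values near 0 and genes that vary together do not meet these conditions, so the count is not read as an excess. Drd3 in EtOH mice had its highest mouse at 0.04 FPKM, next to 0.01 (ratio 0.717), values of about 1 fragment or less. Th in Ctrl mice had its lowest mouse listed at 0, next to 0.22 (ratio 0.581). Maob in EtOH-UA mice had its highest mouse at 15.7 FPKM, next to 11.8 (ratio 0.669). Ppp1r1b in EtOH-UA mice had its highest mouse at 45.2 FPKM, next to 30.6 (ratio 0.599), and this was the same mouse as for Maob.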

How the results depend on the processing

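The 21 differences of the 7 genes tested in limma were read again from each alternative fit, which gave 484 values, several from each fit. Of these values, 464 kept their direction and 20 reversed it, and the lowest limma adjusted p was 0.574. Reversals were found only for differences of at most 0.12 in size. In EtOH-UA against EtOH mice Th reversed to 0.0081 under quantile normalization and to 0.048 without the 2 libraries highest in Ttr, and without those libraries Drd5 reversed to 0.044 in EtOH-UA against Ctrl mice; this last alternative was chosen after seeing the data, and the cause was not tested. With each mouse left out in turn, the log2 fold change ran from -0.20 to 0.028 for Drd1 in EtOH against Ctrl mice. In EtOH-UA against EtOH mice it ran from -0.050 to 0.18 for Drd1, from -0.18 to 0.043 for Th, from -0.024 to 0.088 for Maob and from -0.0066 to 0.15 for Ppp1r1b. In EtOH-UA against Ctrl mice it ran from -0.10 to 0.054 for Drd1, from -0.10 to 0.044 for Drd5, from -0.0017 to 0.10 for Drd2 and from -0.035 to 9.3e-05 for Maoa. The number of all genes past an adjusted p of 0.05 was 0 with all mice and 0 to 1 with a mouse left out, in each of the 3 comparisons, and the number of members was 0 throughout. In Ctrl mice alone the correlation of Maob and Ppp1r1b was 0.437. No paired analysis was possible because the columns carry no replicate numbers. Depth limits Drd3, Drd4, Th and Drd2 most, with 28.8 fragments per mouse or fewer.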
